A study of Mus musculus with 8 samples.

Results

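The cell cycle and DNA replication genes described here are 41 named genes out of 52325 gene identifiers measured in mouse rib cartilage cells. They were matched by symbol in a gene-level expression table, each identifier counted once, and all 41 were found. By role they fall into 12 genes of G1 control and S phase entry, 12 genes of S phase and 17 genes of G2 and mitosis. Total RNA was sequenced from costal chondrocytes, the cartilage cells freed from rib cages with collagenase, and each library came from 1 mouse. The groups were 4 wild-type controls (WT) and 4 mice lacking the microRNA gene Mir324 (Mir324-null, here the null group). Neither group was treated, and the labels used here give no age, sex, strain or design of the null allele.

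Cells commit to division in G1, when D-type cyclins with CDK4 and CDK6, then E-type cyclins with CDK2, inactivate the retinoblastoma protein and free E2F transcription factors. E2F factors switch on the S phase genes, which copy DNA and supply its nucleotides. Genes of G2 and mitosis are switched on later and share a promoter element, the cell cycle homology region, read by the MuvB complex with B-MYB and FOXM1. In cartilage, division is known from the columnar cells of the growth plate, while resting and hypertrophic chondrocytes divide little or not at all.

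Values are TPM, transcript counts divided by length and scaled to a common total, so levels of different genes can be set side by side. TPM keeps no record of sequencing depth, so no counting interval is given. Mir324 itself was listed at 0 TPM in all 8 libraries and gave no check of genotype. Cartilage identity was plain from Col2a1, the main collagen of cartilage, at 39546 ± 4309 TPM in WT mice and 37648 ± 5024 TPM in null mice (SD, n = 4 each). Null replicate 3 stood somewhat apart, with a mean Spearman correlation of 0.864 with the other libraries over 13910 genes, while the rest had 0.895 to 0.914. Xist, which coats the inactive X, exceeded 1 TPM in 3 WT and 2 null libraries. WT replicate 2 was at or below that level, as were replicates 3 and 4 of the null group. Values listed for single mice run from replicate 1 to replicate 4 of a group.

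The sequences that frame these genes are the 2 mature forms of the deleted microRNA and the promoters of the members. The mature forms follow from RefSeq (GRCm38.p6, chromosome 11, plus strand, 70012060 to 70012082 and 70012095 to 70012114), with the seed, bases 2 to 8, in capitals.
mmu-miR-324-5p: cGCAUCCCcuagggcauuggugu
mmu-miR-324-3p: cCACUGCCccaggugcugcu
The seeds differ, so each form was searched for its own 7-base site in the longest annotated 3′ UTR (GENCODE M21, GRCm38). The 5p site GGGATGC was found in 4 of 16 tested mitosis genes (Cdk1, Cenpf, Top2a and Tpx2), 2 of 12 G1 genes (Ccne1 and Cdk6) and 0 of 12 S phase genes. Over all 11295 tested genes with a 3′ UTR the share was 8.42%. The 3p site GGCAGTG was found in Ccnd1, Cdk4 and Cdk6 among the G1 genes, Mcm6 and Tyms among the S phase genes and Tpx2 in mitosis, against 15.7% of all tested genes. Cdk1 held the 5p site at 2 places and Cdk6 the 3p site at 2 places. Those of Cdk1 lie on the minus strand of chromosome 10, at 69337647 to 69337653 and 69337607 to 69337613, and that of Top2a on the minus strand of chromosome 11 at 98993188 to 98993194. Tpx2, with a site for each form, has them on the plus strand of chromosome 2 at 152894221 to 152894227 and 152894448 to 152894454. These sites are shown with their flanks, the seed match in capitals.
Cdk1 first 5p site: agcagtcaaaGGGATGCctgagacgac
Cdk1 second 5p site: actaaaggctGGGATGCttaagtttgt
Top2a 5p site: gactctactcGGGATGCcttcccaaca
Tpx2 5p site: tgctgacaatGGGATGCcacagcctat
Tpx2 3p site: aacttcccaaGGCAGTGccaggctatg
A match of 7 letters is a description and not a measured binding site. The shares were not adjusted for the length of the 3′ UTR. It was 10217 bases in Cdk6, 3352 in Cdk1 and 511 in Top2a.

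Promoter windows of RefSeq (GRCm38.p6, 250 bases before to 50 after the start) were listed for 32 of the 41 members. Windows were searched on both strands for the cell cycle homology region (TTTGAA, with a variant form TTCGAA), for E2F motifs (the form TTCCCGC, a form with TTGGCGC and the longer TTTCGCGC) and for the NF-Y box (CCAAT), and a gene counted once per kind even where matches overlapped. Matches to the cell cycle homology region were found in 11 of 13 mitosis genes (84.6%), 3 of 11 S phase genes (27.3%) and 0 of 8 G1 genes. Of all 27025 genes with a window, expressed here or not, 21.7% held one. E2F motifs were in 5 of 11 S phase genes (45.5%), 3 of 13 mitosis genes (23.1%) and 1 of 8 G1 genes (12.5%). Of all genes with a window 8.07% held one. The NF-Y box was in 12 of 13 mitosis genes, 9 of 11 S phase genes and 3 of 8 G1 genes (37.5%). Of all genes with a window 41.1% held it. The promoters below are those of 4 mitosis genes, each with the cell cycle homology region, and of the S phase gene Mcm6, which lacks it. Each is the stretch of 120 bases before the RefSeq start, on the strand of the gene, with matched motifs in capitals.
Cdk1, chr10:69352913-69353032, minus strand: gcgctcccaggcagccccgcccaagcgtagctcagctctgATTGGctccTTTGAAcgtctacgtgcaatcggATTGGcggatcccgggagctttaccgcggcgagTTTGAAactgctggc
Cdc20, chr4:118437344-118437463, minus strand: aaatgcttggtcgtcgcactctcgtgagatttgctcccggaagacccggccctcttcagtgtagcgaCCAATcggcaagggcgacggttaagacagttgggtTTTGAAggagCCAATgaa
Mki67, chr7:135716380-135716499, minus strand: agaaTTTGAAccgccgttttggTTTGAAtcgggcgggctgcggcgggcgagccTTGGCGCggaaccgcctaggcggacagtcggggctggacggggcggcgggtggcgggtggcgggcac
Kif11, chr19:37376262-37376381, plus strand: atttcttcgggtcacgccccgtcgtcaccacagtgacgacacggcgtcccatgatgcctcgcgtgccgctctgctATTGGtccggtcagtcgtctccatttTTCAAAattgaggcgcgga
Mcm6, chr1:128359706-128359825, minus strand: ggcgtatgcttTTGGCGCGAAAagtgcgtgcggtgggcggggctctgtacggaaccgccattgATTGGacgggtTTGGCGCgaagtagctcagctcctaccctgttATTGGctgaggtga
In Cdk1 the cell cycle homology region began 71 and 15 bases before the start, in Cdc20 18 bases before it and in Kif11, on the opposite strand, 19 bases before it. Mki67 held the region at 116 and 98 bases and an E2F motif at 67 bases before the start, and its NF-Y boxes, at 188, 166 and 141 bases, lie outside the stretch shown. Mcm6 held E2F motifs beginning 109, 106 and 46 bases before the start, the first 2 overlapping, and no cell cycle homology region. In Bub1 the match began at base 15 after the start and lies outside the stretch shown for other genes. Like the seed matches, these motif matches are a description of letters and not measured binding sites.

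**Figure D1:**
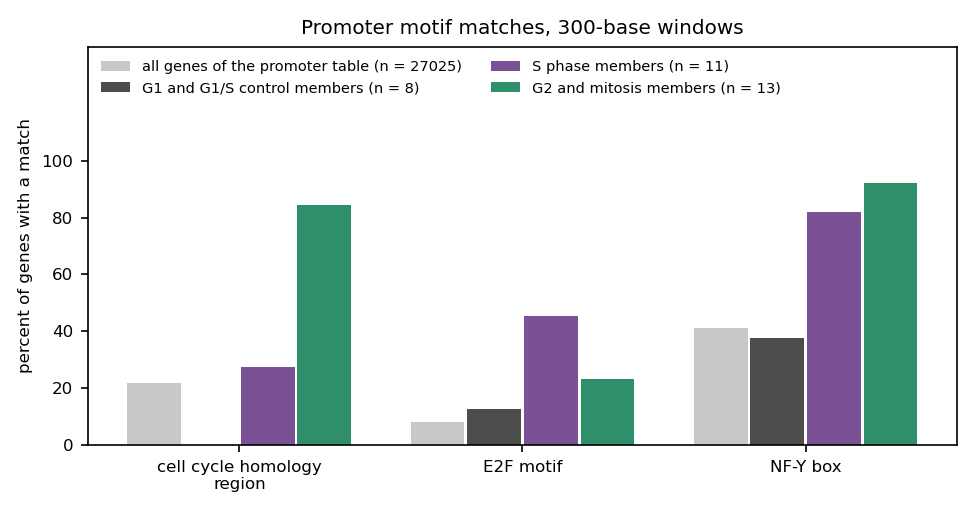
The bars give the percent of genes with at least 1 match to each motif kind in the promoter window, for all genes of the RefSeq table (n = 27025) and for G1 (n = 8), S phase (n = 11) and mitosis (n = 13) genes. Letter matches to the cell cycle homology region reached 84.6% in mitosis genes, 0% in G1 genes and 21.7% in all genes.

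A few regulators were abundant and most members were low. Cdkn1a, which encodes the CDK inhibitor p21, was the highest member, with Pcna, Ccnd2, Ccnd3 and Cdk4 next, all above 80 TPM on average. The remaining 36 members averaged from 0.859 TPM (Plk1) to 16.1 TPM (Mcm2) over the 8 libraries. Mki67, the common proliferation marker, averaged 4.29 TPM.

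**Figure D2:**
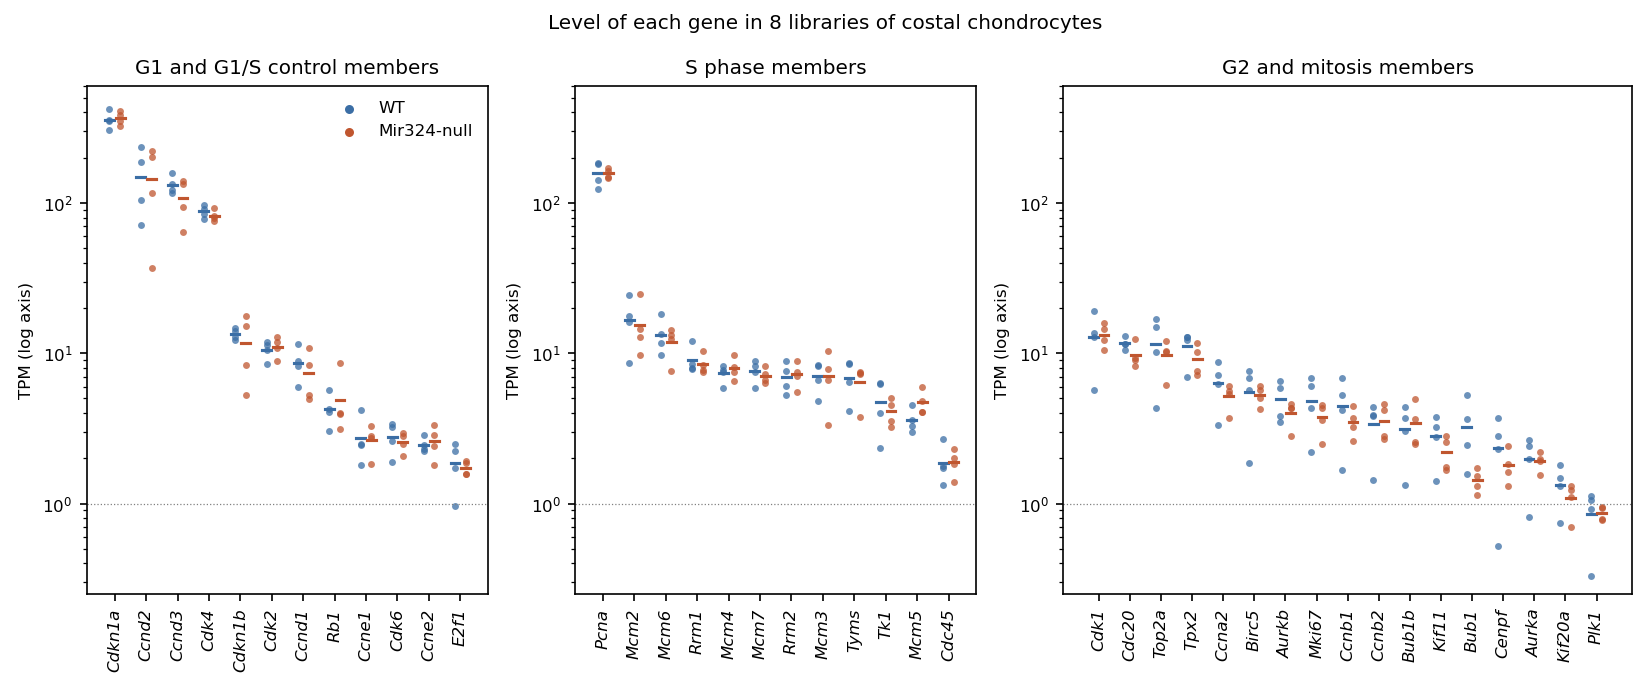
Each point is the TPM of 1 gene in 1 library on a log axis, WT in blue and null in orange, with short bars for the group means (n = 4 each), and the dotted line marks 1 TPM. Cdkn1a, Ccnd2, Ccnd3, Cdk4 and Pcna stand above the other members, and 1 WT library lies low in most mitosis genes.

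Loss of Mir324 poses the question of whether the division programme of these cells changed. None of the 40 members that passed the filter on low values (at least 1 TPM in 4 or more libraries) passed limma at the threshold of 0.05, and their adjusted p ran from 0.981 to 0.999. Over all 13910 tested genes 3 passed, or 0.0216%. At an unadjusted p under 0.05 there was 1 member, Bub1, against 4.15% of all tested genes. The groups overlapped in every tested member, while in 2.68% of tested genes they did not. Fold changes were negative in 26 members and positive in 14, with a median log2 fold change of -0.08, beside -0.05 over all tested genes, of which 60.1% were negative. This split rested on single libraries: 33 were negative and 7 positive without WT replicate 2, 18 and 22 without WT replicate 1, and 20 and 20 without WT replicate 3. Without null replicate 3 it stayed at 26 and 14, while 6149 of 13656 genes tested there were negative. With median-of-ratios scaling 25 members were negative and 15 positive, beside 52.7% of all genes negative. The size factor of null replicate 3 was 0.809, with 0.967 to 1.08 in the other libraries. The share of 60.1% thus depends on the scaling and on this library. For 36 of 40 members both ends of the 95% interval were closer to 0 than 1 log2 unit, as for 79.9% of all tested genes. These intervals are on the log2(TPM + 1) scale, which understates changes of low genes. Bub1 was at -0.73 on it and at -1.01 with a pseudocount of 0.1. Plk1, a kinase of mitotic entry, did not pass the filter, at 1.12, 0.328, 1.06 and 0.918 TPM in WT mice and 0.772, 0.788, 0.952 and 0.937 TPM in null mice.

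**Figure D3:**
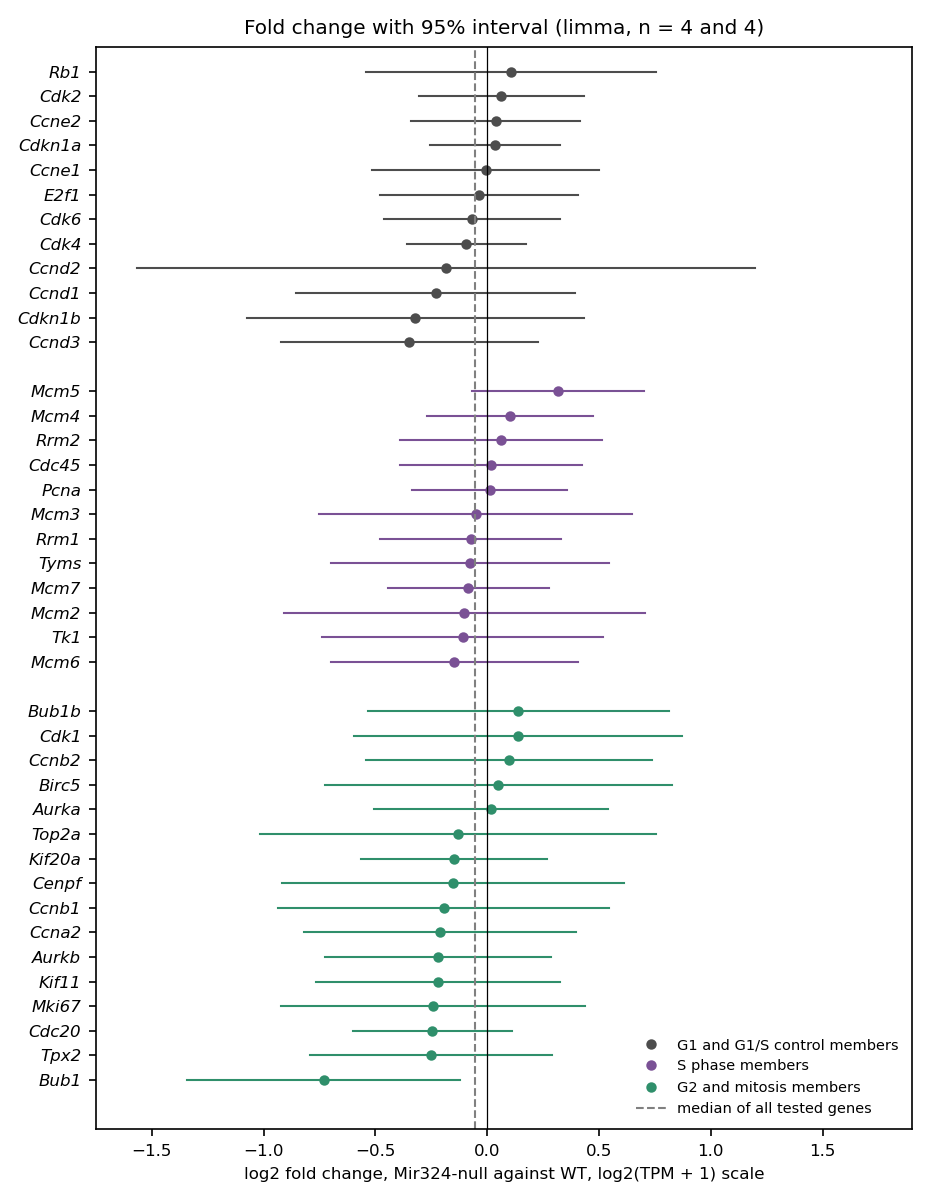
Points are log2 fold changes of the null group against WT on the log2(TPM + 1) scale with 95% intervals from limma (n = 4 each), for the 40 tested members by role. The dashed line is the median of all tested genes (-0.05), and the interval of Bub1 alone does not reach 0.

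D-type cyclins, the growth-factor-driven partners of CDK4 and CDK6, were present mainly as Ccnd2 and Ccnd3. Ccnd2 stood at 186, 234, 104 and 71.0 TPM in WT mice and at 116, 222, 37.1 and 202 TPM in null mice. It ranged 6.31-fold across mice within overlapping groups, and its log2 fold change of -0.18 had a 95% interval of -1.57 to 1.20. Ccnd3 stood at 135, 122, 116 and 157 TPM in WT mice and 140, 94.5, 63.8 and 134 TPM in null mice. Null replicate 3 was the lowest library for both genes. Ccnd1 was far lower, at 8.19, 5.98, 11.5 and 8.84 TPM in WT mice and 4.97, 10.9, 5.27 and 8.40 TPM in null mice. It held 3.21 ± 1.45% of the summed D cyclin TPM in WT mice and 3.16 ± 1.34% in null mice (SD, n = 4 each). The share of Ccnd2 ran from 29.9% in WT replicate 4 to 67.8% in null replicate 2, so the leading D cyclin differed from mouse to mouse in both groups.

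**Figure D4:**
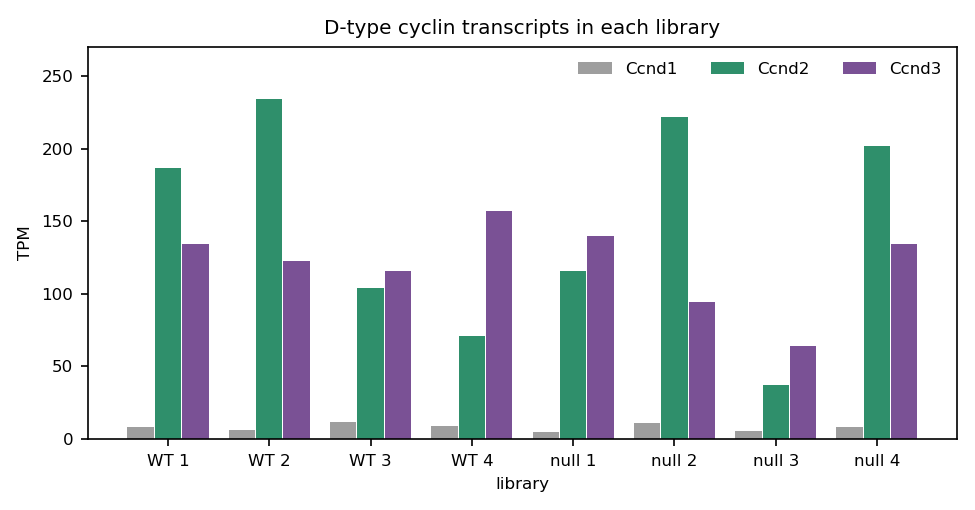
Bars are the TPM of Ccnd1, Ccnd2 and Ccnd3 in each of the 8 libraries. Ccnd2 runs from 37.1 TPM in null replicate 3 to 234 TPM in WT replicate 2, Ccnd3 from 63.8 to 157 TPM, and Ccnd1 stays at or under 11.5 TPM.

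Among the kinases of G1, Cdk4 stood at 97.2, 78.6, 85.1 and 91.0 TPM in WT mice and 82.4, 75.3, 92.9 and 79.0 TPM in null mice, a log2 fold change of -0.09 (95% interval -0.36 to 0.17). It was the least variable of the members, at 1.29-fold from the lowest to the highest library. Cdk6, its alternative and a holder of sites for both microRNA forms, averaged 2.78 ± 0.67 TPM in WT mice and 2.57 ± 0.38 TPM in null mice (SD, n = 4 each), so Cdk4 supplied 97.0 ± 0.51% and 96.9 ± 0.65% of the pair. Cdk2, the partner of E-type cyclins, averaged 10.5 ± 1.51 and 11.1 ± 1.68 TPM (SD, n = 4 each). Ccne1 and Ccne2, the E-type cyclins themselves, were low, at means of 2.70 and 2.53 TPM over the 8 libraries, with log2 fold changes of -0.01 and 0.04. E2f1, an activating E2F factor, averaged 1.86 ± 0.67 TPM in WT mice and 1.73 ± 0.19 TPM in null mice (SD, n = 4 each).

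The brakes of G1 were uneven in level. Cdkn1a stood at 354, 421, 352 and 308 TPM in WT mice and at 327, 408, 383 and 350 TPM in null mice, with a log2 fold change of 0.04 (95% interval -0.26 to 0.33). The groups coincided across this range. Cdkn1b, which encodes p27, a CDK inhibitor of resting cells, was narrow in WT at 12.2, 12.8, 14.2 and 14.6 TPM and wide in the null libraries at 15.1, 8.35, 5.30 and 17.7 TPM. The null values lay on both sides of the WT range, and the log2 fold change was -0.32 (95% interval -1.07 to 0.43). Rb1, the retinoblastoma gene, stood at 3.12 to 3.97 TPM in 3 null libraries and at 8.62 TPM in null replicate 2, with 3.06 to 5.72 TPM in WT.

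Of the S phase genes, 7 of 12 had negative and 5 positive fold changes, with a median log2 fold change of -0.06. Pcna, the sliding clamp of DNA polymerases, was the only one above 25 TPM in any library, at 182, 184, 142 and 124 TPM in WT mice and 150, 146, 170 and 164 TPM in null mice. Its log2 fold change was 0.01 (95% interval -0.34 to 0.36). The 6 genes of the MCM2-7 helicase, which work as a single hexamer, were not at equal level: Mcm2 averaged 16.1 TPM and Mcm6 12.6 TPM over the 8 libraries, while Mcm4, Mcm7, Mcm3 and Mcm5 averaged 7.66, 7.36, 7.04 and 4.17 TPM. Mcm2 also varied most among S phase members apart from Mcm3, at 24.5, 8.59, 16.1 and 17.7 TPM in WT mice and 24.8, 14.5, 12.8 and 9.67 TPM in null mice. Mcm5 had the largest positive fold change of any member, at 4.50, 3.29, 3.61 and 2.98 TPM in WT mice and 4.06, 4.81, 5.99 and 4.08 TPM in null mice. The groups overlapped, and its log2 fold change of 0.32 had a 95% interval of -0.07 to 0.70 and an unadjusted limma p of 0.0935.

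Cdc45, which joins the helicase at firing origins, was the lowest S phase member at 1.88 TPM on average over the 8 libraries. Genes of nucleotide supply stayed close between groups. Rrm1 and Rrm2, subunits of ribonucleotide reductase, had log2 fold changes of -0.07 and 0.06. Tyms, thymidylate synthase, stood at 8.42, 4.13, 8.62 and 6.41 TPM in WT mice and 7.36, 3.78, 7.25 and 7.45 TPM in null mice, with replicate 2 lowest in each group. Tk1, the cytosolic thymidine kinase, averaged 4.72 ± 1.93 TPM in WT mice and 4.10 ± 0.85 TPM in null mice (SD, n = 4 each).

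Genes of G2 and mitosis varied together among the WT mice. All 17 were below their own 8-library mean in WT replicate 2, and 13 of 17 had their lowest value there. All 17 were above their mean in WT replicates 1 and 3, and 15 of 17 in WT replicate 4. In the null libraries the signs were mixed, with 10, 3, 6 and 11 of 17 above their mean. The summed level of the 17 genes was 117, 48.2, 112 and 92.9 TPM in WT mice. In null mice it was 86.9, 69.5, 76.0 and 87.4 TPM. The null libraries lay between WT replicate 2 and the other 3 WT libraries, and the SD of this sum was 31.2 TPM among WT and 8.75 TPM among null mice. The median within-group SD of the 16 tested mitosis genes was 0.42 on the log2(TPM + 1) scale, beside 0.26 for S phase genes, 0.30 for G1 genes and 0.30 for all tested genes.

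**Figure D5:**
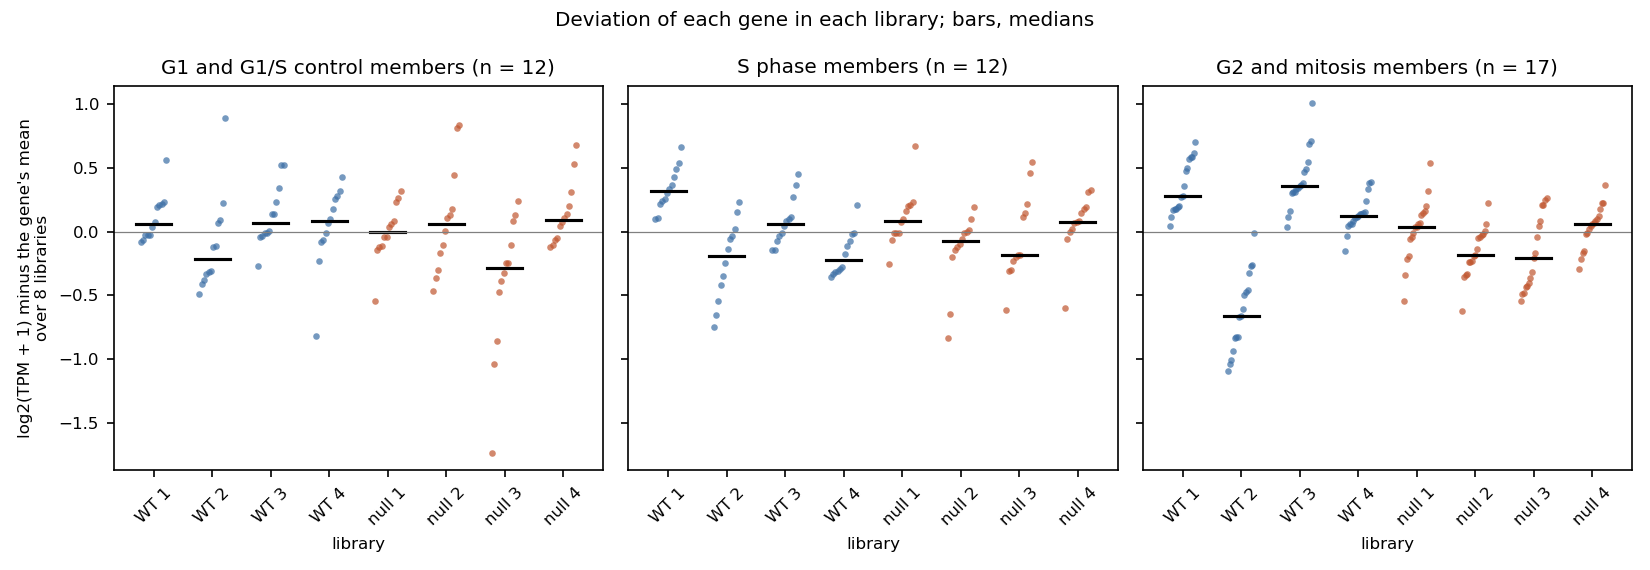
Each point is 1 gene in 1 library, as log2(TPM + 1) minus the mean of that gene over the 8 libraries, with black bars for medians, WT in blue and null in orange. Mitosis genes (n = 17) lie below 0 throughout in WT replicate 2, with a median of -0.66, and above 0 throughout in WT replicates 1 and 3. In WT replicate 2, 8 G1 and 9 S phase genes (n = 12 each) lie below 0. All 12 S phase genes lie above 0 in WT replicate 1 (median 0.32), and 11 of 12 lie below it in WT replicate 4.

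Mki67, which coats mitotic chromosomes, stood at 6.82, 2.21, 6.02 and 4.29 TPM in WT mice and 4.34, 3.62, 2.49 and 4.54 TPM in null mice. Top2a, the topoisomerase that untangles chromosomes, stood at 16.8, 4.33, 15.0 and 10.3 TPM in WT mice and 10.4, 6.11, 12.1 and 10.2 TPM in null mice. Cdk1, the kinase that drives mitosis, stood at 19.2, 5.71, 12.8 and 13.5 TPM in WT mice and 15.8, 10.5, 14.6 and 12.3 TPM in null mice. In all 3 genes WT replicate 2 was the lowest of the 8 libraries, and WT replicate 1 the highest. Their log2 fold changes were -0.24, -0.13 and 0.14, and each 95% interval included 0.

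Cyclins of G2 and mitosis, the partners of CDK1, were lowest in WT replicate 2 as well. Ccnb1 stood at 4.17, 1.67, 6.83 and 5.26 TPM in WT mice and 4.48, 3.72, 2.60 and 3.24 TPM in null mice. Ccna2, which also acts in S phase, averaged 6.36 ± 2.29 TPM in WT mice and 5.17 ± 1.02 TPM in null mice, and Ccnb2 3.37 ± 1.31 and 3.56 ± 0.96 TPM (SD, n = 4 each). Pseudogene copies of Ccnb1, Ccnb2, Ccnd3 and Pcna are in the table, each under 1 TPM in every library.

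Among spindle and kinetochore genes, Bub1, a kinase of the spindle checkpoint, had the largest fold change of the 40 tested members. It stood at 3.68, 1.58, 5.25 and 2.43 TPM in WT mice and 1.13, 1.72, 1.31 and 1.54 TPM in null mice. WT replicate 2 lay inside the null range, and the other 3 WT values lay above it. The log2 fold change of -0.73 (SE 0.27, 95% interval -1.34 to -0.12) had an unadjusted limma p of 0.0241 and an adjusted p of 0.981. In Bub1b, which encodes the checkpoint partner BUBR1, the difference was 0.14 on the log2 scale (95% interval -0.53 to 0.81). Cdc20, an activator of the anaphase-promoting complex, stood at 13.0, 10.5, 11.5 and 11.5 TPM in WT mice and 8.99, 8.21, 9.31 and 12.5 TPM in null mice. Only null replicate 4 reached the WT range, and the log2 fold change was -0.24 (95% interval -0.60 to 0.11).

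Tpx2, a spindle assembly factor that activates Aurora A, stood at 12.3, 6.97, 12.8 and 12.8 TPM in WT mice and 10.2, 7.63, 7.12 and 11.8 TPM in null mice. Aurka, the Aurora A gene, was lower, at 1.97 ± 0.82 TPM in WT mice and 1.91 ± 0.27 TPM in null mice (SD, n = 4 each). Aurkb and Birc5 (survivin), subunits of the chromosomal passenger complex, had log2 fold changes of -0.22 and 0.05. Kif11 and Kif20a, kinesin motors of the spindle and of its midzone, had -0.22 and -0.15. Cenpf, a kinetochore protein gene, spanned the widest range of all 41 members, 7.05-fold, from 0.524 TPM in WT replicate 2 to 3.70 TPM in WT replicate 3. Holders of the 5p site in mitosis (Cdk1, Cenpf, Top2a and Tpx2) had log2 fold changes of 0.14, -0.15, -0.13 and -0.25.

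The comparison of mitosis genes between genotypes depended on which libraries were kept. With all 8 libraries 11 of 16 were negative and 5 positive, with a median log2 fold change of -0.17. Without WT replicate 2 all 16 were negative, with a median of -0.38, beside 56.9% negative and a median of -0.04 over all genes tested there. Without WT replicate 3 the count was 8 and 8 with a median of -0.02, beside -0.05 over all genes tested there. Without WT replicate 1 the median was -0.09, beside -0.06 over all genes. Without null replicate 3 it was -0.09 with 12 of 16 negative, while the median of all genes rose to 0.02. That last removal therefore moved all genes and not the mitosis genes alone. No member passed an adjusted p of 0.05 in any of these fits. WT replicate 2 is also the only WT library without Xist. Among the 3 WT and 2 null libraries with Xist all 16 mitosis genes were negative (median -0.38, beside 0.04 over all genes tested there). Between WT replicate 2 and the 2 null libraries without Xist 15 of 16 were positive, with a median difference of 0.50 on the log2(TPM + 1) scale beside -0.18 over all tested genes. The second value has 1 WT library and no test, and sex is not in the labels, so a difference of this mouse and one of its sex cannot be told apart. Both Xist splits set apart WT replicate 2, where most mitosis genes were lowest. They largely restate its removal and are not a separate result.

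Markers of other cells also differed between libraries. In WT replicate 2 the 8 perichondrium and fibroblast markers summed to 1395 TPM, the lowest of the 8 libraries, with 1921 to 4419 TPM in the other WT and 1559 to 3136 TPM in null mice. The 11 chondrocyte markers found summed to 46634 TPM there, with 56160 to 57893 TPM in the other WT libraries and 44255 to 59111 TPM in null mice. The 11 endothelial markers ran from 17.1 TPM (WT replicate 1) to 65.0 TPM in WT mice and from 53.1 to 75.6 TPM in null mice. The macrophage and monocyte markers ran from 44.6 to 63.5 and from 62.1 to 92.5 TPM. Fold changes were positive in all 9 tested endothelial, 3 macrophage and monocyte, 5 erythroid and 2 neutrophil markers. Each other tested list held both signs. The endothelial median log2 fold change was 0.77, and 0 passed the adjusted threshold. At an unadjusted limma p under 0.05 there were 4 of 9, against 4.15% of all tested genes. Erythroid markers ran from 111 to 1082 TPM in WT mice and 281 to 1039 TPM in null mice. Neutrophil markers reached at most 6.26 TPM and lymphocyte markers 1.79 TPM in any library, and 1 of 6 lymphocyte markers was at 0 throughout. Hypertrophic chondrocyte markers ran from 133 to 323 TPM in WT mice and 146 to 218 TPM in null mice, and skeletal muscle markers, 1 of 6 at 0 throughout, from 43.6 to 111 and from 56.6 to 79.3 TPM. Their part in the levels of the cell cycle genes was not tested, and in bulk RNA fewer dividing cells and less of each RNA per cell cannot be told apart.

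Other genes of mitosis were also lowest in WT replicate 2 in most cases. Of 47 other mitosis genes 43 were tested, 0 passed, and 28 were negative and 15 positive, with a median log2 fold change of -0.13. Over all tested genes 60.1% were negative, and 4.15% had an unadjusted limma p under 0.05. WT replicate 2 held the lowest value for 32 of the 47. Smc4, a condensin subunit, stood at 54.5, 39.4, 54.0 and 53.3 TPM in WT mice and 36.5, 41.2, 27.4 and 38.4 TPM in null mice, and was the 1 gene of the list with an unadjusted limma p under 0.05 (0.0211). Here too WT replicate 2 fell inside the null range while the other 3 WT libraries lay above it. Kifc1, a minus-end spindle kinesin, and Ncapg, another condensin subunit, had log2 fold changes of -0.41 and -0.38. In the positive direction the smallest p-values were those of Ncapd2, Pttg1 (securin) and Kif15, with 0.31, 0.21 and 0.24.

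Other replication genes were balanced, with 20 positive and 22 negative of 42 tested, a median of -0.01 and 0 past the threshold. At an unadjusted limma p under 0.05 there were 0, against 4.15% of all tested genes. Orc1, the largest origin recognition subunit, averaged 3.68 ± 4.37 TPM in WT mice and 7.07 ± 2.88 TPM in null mice (SD, n = 4 each), and its log2 fold change of 1.09 had a 95% interval of -0.22 to 2.40. Rfc3, a clamp loader subunit, and Chaf1b, a chromatin assembly factor, had 0.41 and 0.21. Cdc7, a kinase of origin firing, Cdc6, a helicase loader, and Pold3, a subunit of polymerase delta, had -0.30, -0.25 and -0.31.

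Of 32 other G1 and checkpoint genes 31 were tested and 0 passed, with 21 negative, 10 positive and a median of -0.15. At an unadjusted limma p under 0.05 there were 2 of them, against 4.15% of all tested genes, of which 60.1% were negative. In 2.68% of all tested genes the groups did not overlap. Of the 3 wider lists only E2f8, an atypical E2F that represses E2F targets, was of this kind. It stood at 2.90, 1.86, 3.31 and 2.70 TPM in WT mice and 1.72, 1.36, 1.08 and 1.23 TPM in null mice, a log2 fold change of -0.64 (SE 0.17, 95% interval -1.02 to -0.27). Its unadjusted limma p was 0.00425 and its adjusted p 0.981. Btg2, an antiproliferative early-response gene, stood at 347, 293, 329 and 412 TPM in WT mice and 287, 170, 146 and 315 TPM in null mice, with a log2 fold change of -0.65 and an adjusted limma p of 0.981. Ccng1, a cyclin gene induced by p53, had -0.48. Cks1b, a CDK-binding subunit, Chek2, a DNA damage kinase, and E2f4, a repressive E2F, had 0.44, 0.41 and 0.16.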

How the data were processed

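Gene-level TPM for 8 libraries were used, 1 column per sample with no pooling. The deposited values are length-scaled TPM, per the table's name; each column summed to 1000000 once 273 identifiers repeated on 813 rows with equal values were counted once. With the repeats 1 column's sum was over the limit for TPM, so that column's unit was recorded as other, although its deposited values are TPM. Per the submitters' processing notes, kallisto and DESeq2 were used, with no version or role, and the notes name the human build GRCh38 although the identifiers are mouse Ensembl genes; the transcriptome and strand setting: not given in the sources used here. No other per-sample columns were present.

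Genes at 1 TPM or more in at least 4 libraries (13910) were tested on log2(TPM + 1) with limma 3.58.1 in R 4.3.3, a single genotype term, limma's trend option and a threshold of 0.05 after Benjamini-Hochberg adjustment over all genes. A fold change on this scale understates the change of low genes. The procedure was tested on simulated data. At most 0.769% of tested genes had the same TPM in any pair of libraries, and all 8 were kept. Members, lists, motifs and tests were chosen with earlier results of these data known. Named genes are all members, and of each wider list the 3 tested genes with the smallest p in each direction. Loci are from GENCODE M21 and RefSeq (GRCm38); the authors' own annotation may differ. Of 12 chondrocyte markers chosen, 1 symbol (Snorc) was not matched.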

Additional observations from a re-analysis of the deposited data

Results flagged for a closer look

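In 5 of 82 groups of 4 values, 1 library lay far from the other 3 of its group, by a gap that exceeds Dixon's 95% critical share of the group's range. Chance gives about 1 in 20 groups, or 4.1 of 82. Tpx2 stood at 6.97 TPM in WT replicate 2, against 12.3 to 12.8 TPM in the other WT libraries, the library in which all 17 mitosis genes were below their mean. In null replicate 3 Aurkb was at 2.83 TPM, and the other null mice were at 4.34 to 4.59 TPM. Null replicate 2 held 2 such values: Rb1 at 8.62 TPM, against 3.12 to 3.97 TPM, and Tyms at 3.78 TPM, against 7.25 to 7.45 TPM. Rrm1 stood at 12.1 TPM in WT replicate 1, against 7.83 to 8.47 TPM in the other WT libraries.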

How the results depend on the processing

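The count of members past an adjusted p of 0.05 was 0 under every alternative run, with a smallest adjusted p of 0.681, under array quality weights. The count over all genes, 3, rests on few calls: it was 5 with a pseudocount of 0.1, and 0 with no filter on low values, with a mean TPM of at least 1, with the replicate block, with the Xist to Y-linked ratio as covariate, without WT replicate 2 and null replicate 3 together, and in the libraries with Xist. Leaving out 1 library at a time gave 0 to 6. The last 2 of the settings named, which drop several libraries, were chosen after seeing the data. The labels do not say whether the replicate numbers pair the mice, and the main fit used no pairing. The correlation of same-numbered deviations ran from -0.05 to 0.11, and 4 of 8 libraries correlated best with their own number. These values do not settle whether mice were paired. Medians of the members moved by less than the spread between replicates in every alternative. Of 680 member fold changes recomputed, 677 moved by less than the within-group SD of the gene. Mcm3 (-0.60), Ccnb2 (-0.42) and Cdc20 (-0.44) in the libraries with Xist moved by more. Leaving out 1 library could not move a fold change that far, and the replicate block and filter settings left it unchanged. The count of 677 is therefore no measure of how the fold changes hold under those settings. Removing 1 library at a time gave medians of -0.14 to -0.0031 for G1 genes and -0.09 to 0.07 for S phase genes; with the Xist to Y-linked ratio as covariate the mitosis median was -0.06. These removals changed the sign of 3 to 10 of 40 members. Median-of-ratios scaling moved the median of all genes from -0.05 to -0.01 and changed the sign of 1 member. Leaving out null replicate 3 moved the median of all genes to 0.02. Depth is unknown, so members near 1 TPM carry a counting error that cannot be given.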
